A study of Mus musculus with 6 samples.

Results

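The glandular kallikreins are a family of secreted serine proteases that the submandibular gland of the mouse makes in large amounts. The family was taken as 10 genes named by symbol, Klk1, Klk1b3, Klk1b4, Klk1b5, Klk1b8, Klk1b9, Klk1b11, Klk1b16, Klk1b22 and Klk1b26. Symbols alone decided which probe sets entered, but the family was picked for description with earlier results of these data known. Of these 10, 8 had a probe set under their symbol, 1 each, out of 19505 genes with a probe set in all. Klk1b3 and Klk1b4, the genes of the gamma and alpha subunits of the nerve growth factor complex, had none under their symbol and were not analysed here. Values came from whole submandibular glands of 6 female mice aged 10 weeks, 3 of the strain NOD.B6-Myd88−/− and 3 of the strain NOD.B6-Myd88+/+, with 1 Clariom S array per mouse and no technical replicates. Both groups carry the NOD background, a strain that develops autoimmune infiltrates in its salivary glands, and they differ by label only in Myd88, the adaptor of most Toll-like receptors. Nothing in the labels limits the deletion to a cell type, so it is taken as present in all cells. A segment of chromosome around Myd88 may differ between the groups with the strain of origin of the targeted allele, which the labels do not describe.

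In the mouse the family is encoded by a run of neighbouring genes on chromosome 7, with several pseudogenes between them. The proteases are stored in the granules of the granular convoluted tubules, a duct segment that androgens enlarge in males and that is smaller in females, and they are secreted into saliva beside growth factors that some of them process or bind. Klk1, tissue kallikrein, releases kinins from kininogens. Klk1b9 and Klk1b22 encode binding proteins of epidermal growth factor, Klk1b26 a prorenin-converting enzyme and Klk1b16 the protease gamma-renin. Klk1b5, Klk1b8 and Klk1b11 encode related proteases of the same gland.

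The family shares more than its coding sequence. In the RefSeq promoter windows of build GRCm38.p6, which run from 250 bases before to 50 bases after each annotated gene start, the 45 pairs among the 10 genes were 78.4% to 93.2% identical over their aligned bases, with a median of 86.1%. The letters TTTAAA, which read the same on both strands, stood in the windows of 9 of the 10 genes, against 13.2% of all 32851 windows of the same length in the table. The exception was Klk1, and absence there says only that these letters are not in its annotated window. The 110 bases before the annotated start are given for the 3 genes that the array could measure below the top of its scale, Klk1b8, Klk1b9 and Klk1b16, and for 3 that it could not, Klk1b5, Klk1b26 and Klk1. Capitals mark TTTAAA, and all 6 stretches are from GRCm38.p6, written in the direction of transcription.
Klk1b8, chr7:43950556-43950665, plus strand: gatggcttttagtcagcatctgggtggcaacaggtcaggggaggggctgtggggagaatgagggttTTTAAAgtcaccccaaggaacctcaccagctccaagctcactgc
Klk1b9, chr7:43975951-43976060, plus strand: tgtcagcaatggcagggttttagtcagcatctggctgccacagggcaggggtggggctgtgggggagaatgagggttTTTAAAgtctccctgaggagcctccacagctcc
Klk1b16, chr7:44137180-44137289, plus strand: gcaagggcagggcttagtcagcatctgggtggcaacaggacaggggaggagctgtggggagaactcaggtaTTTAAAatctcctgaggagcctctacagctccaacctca
Klk1b5, chr7:44216364-44216473, plus strand: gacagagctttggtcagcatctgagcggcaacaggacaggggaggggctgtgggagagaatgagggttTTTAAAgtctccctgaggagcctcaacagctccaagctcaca
Klk1b26, chr7:44012568-44012677, plus strand: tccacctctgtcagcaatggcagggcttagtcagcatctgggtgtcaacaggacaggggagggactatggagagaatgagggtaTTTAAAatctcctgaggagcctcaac
Klk1, chr7:44225250-44225359, plus strand: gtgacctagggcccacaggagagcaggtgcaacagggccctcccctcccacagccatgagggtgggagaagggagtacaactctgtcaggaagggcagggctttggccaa
The capitals begin 44 bases before the annotated start in Klk1b8, 33 in Klk1b9, 39 in Klk1b16, 42 in Klk1b5 and 26 in Klk1b26. The same letters are therefore found in genes below and at the top of the scale. The consensus palindrome of the androgen receptor, AGAACA and TGTTCT with 3 bases between them, was found on either strand in 0 of the 14 windows of the family and its neighbours and in 0.00913% of all windows. One arm alone, AGAACA or TGTTCT, was found in 2 of the 14, those of Klk1b3 and Klk1b24, against 19.0% of all windows, and no match in so short a window says nothing about the receptor.

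The deposited values are log2 expression values that end at a ceiling of 19.93, and most of the family stood on it or beside it in both genotypes. Klk1, Klk1b5 and Klk1b26 read 19.93 on all 3 arrays of Myd88−/− glands and on all 3 arrays of Myd88+/+ glands. These 3 of 8 measured members are saturated, so no difference between genotypes can be read from them in either direction. Klk1b11 read 19.93 in all 3 Myd88−/− glands, against 19.93, 19.92 and 19.93 in Myd88+/+ glands, where only 1 array was within 0.0005 of the ceiling. Klk1b22 read 19.93 in all 3 Myd88−/− glands, against 19.93, 19.93 and 19.92 in Myd88+/+ glands, where 2 arrays were at the ceiling. Both are therefore also without a readable difference. Of all 22206 tested probe sets, 19 (0.0856%) were on the ceiling on every array. Among the 12 of these with a gene symbol, the other 9 were Car6, Pip, Prol1, Mucl2, Scgb1b27, Scgb2b26 and Scgb2b27, which encode secreted proteins, and Eef1a1 and Pabpc1, which serve translation in all cells. Prol1 and Pip are on the list of submandibular acinar markers, and Car6 is on the list of sublingual and parotid genes. Of the other acinar markers, Smgc, Lpo and Slc12a2 read above 18 on every array, while Dcpp3 and Bpifa2 ranged upward from near or below background. Several markers of the labelled gland were thus high, though not all. Levels of different probe sets are not compared, because each set has its own probes.

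**Figure D1:**
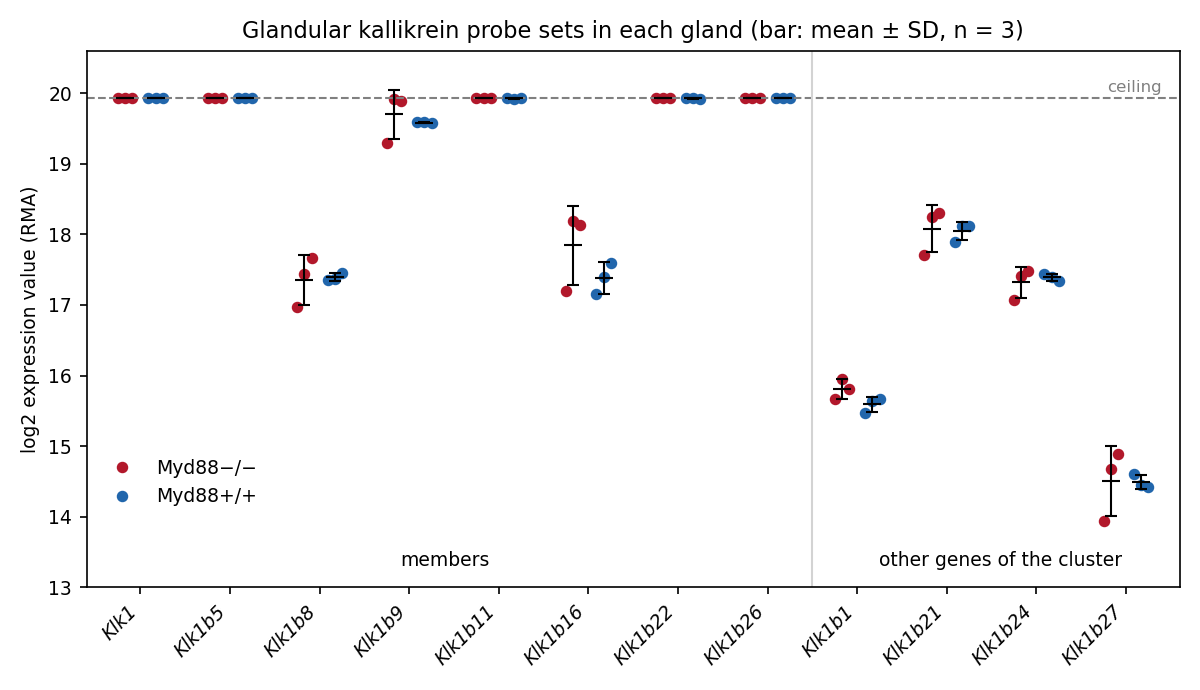
Log2 expression value (vertical axis) of each gland for the 8 measured members and for 4 further genes of the cluster, Myd88−/− in red to the left of Myd88+/+ in blue, with mean and SD (n = 3 each). The dashed line is the ceiling of 19.93, on which Klk1, Klk1b5 and Klk1b26 lie in every gland, and heights of different genes cannot be compared.

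Only 3 members, Klk1b8, Klk1b9 and Klk1b16, were below the ceiling on every array, and in none of them did the genotypes differ beyond the spread between mice. Klk1b8 read 16.97, 17.44 and 17.66 in Myd88−/− glands, against 17.36, 17.37 and 17.46 in Myd88+/+ glands. The lowest and the highest glands were both Myd88−/−, with the 3 Myd88+/+ glands between them. Its average was 17.36 ± 0.35 with Myd88−/−, against 17.39 ± 0.055 with Myd88+/+ (SD, n = 3 each). The log2 difference was −0.04, with a 95% interval of −0.50 to 0.42 (limma adjusted p = 0.97). The interval allows a change of either sign, so it does not show that the levels are alike.

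Klk1b9, the gene of an epidermal growth factor-binding protein, read 19.29, 19.91 and 19.89 in Myd88−/− glands, against 19.59, 19.59 and 19.58 in Myd88+/+ glands. Again the Myd88−/− glands lay on both sides of the Myd88+/+ glands. Its average was 19.70 ± 0.35 with Myd88−/−, against 19.58 ± 0.0057 with Myd88+/+ (SD, n = 3 each). The log2 difference was 0.12 (95% interval −0.34 to 0.57, limma adjusted p = 0.877). The highest value lay 0.019 below the ceiling, where the scale leaves little room above the 2 upper Myd88−/− glands. Of the Myd88+/+ values, replicates 1 and 2 were identical to every deposited digit, so their very small SD is in part a tie.

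Klk1b16, the gene of gamma-renin, had the largest difference of the 3. It read 17.20, 18.19 and 18.13 in Myd88−/− glands, against 17.15, 17.40 and 17.60 in Myd88+/+ glands. Myd88−/− replicates 2 and 3 were above every Myd88+/+ gland, and Myd88−/− replicate 1 was below Myd88+/+ replicates 2 and 3. Its average was 17.84 ± 0.55 with Myd88−/−, against 17.38 ± 0.22 with Myd88+/+ (SD, n = 3 each). The log2 difference was 0.46, or 1.38-fold (95% interval −0.16 to 1.08, limma adjusted p = 0.605). The two-sided exact permutation p was 0.9 for Klk1b8, 0.4 for Klk1b9 and 0.3 for Klk1b16, where 3 mice against 3 cannot give less than 0.1.

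As a family, the measured members did not pass the test in either direction. With limma, 0 of the 5 members not saturated on every array had an adjusted p under 0.05 with a higher level and 0 with a lower level, and 0 of the 3 readable members had an unadjusted p under 0.05. Over all probe sets the share called was 0% after adjustment. At an unadjusted p under 0.05 it was 10.1%, of which 4.5% higher and 5.55% lower, so the absence of calls sets the family apart from nothing. The groups did not overlap in 0 of the 3 readable members, against 15.1% of all probe sets (7.84% higher and 7.25% lower). The median log2 difference was 0.12 over the 3 readable members, 2 of them higher and 1 lower. Over all 22206 probe sets it was 0.02, and over the 11103 brighter ones, which the members are among, −0.07. Over all 5 members not saturated on every array the median was 0.0047, which the ceiling holds near 0. The targeted gene itself read 7.33, 6.80 and 7.47 in Myd88−/− glands, against 7.81, 7.86 and 7.53 in Myd88+/+ glands, and did not pass either (limma adjusted p = 0.462). The labels do not say whether its probe set lies in the deleted segment, so it does not check the genotypes.

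**Figure D2:**
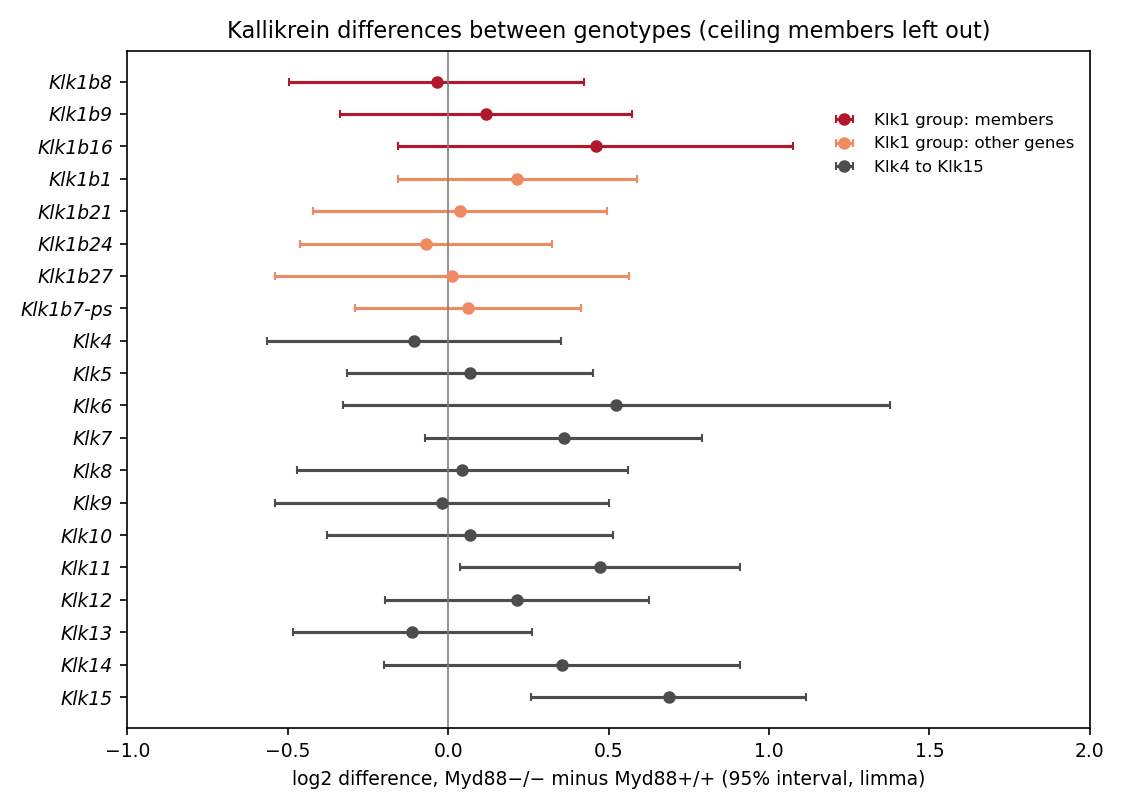
Log2 difference, Myd88−/− minus Myd88+/+ (horizontal axis), with limma's 95% interval for the 3 readable members, 5 other genes of the glandular cluster and Klk4 to Klk15. The intervals of all 8 glandular kallikreins include 0, and those of Klk11 and Klk15, both dim, do not before adjustment.

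The other genes of the glandular cluster gave a wider set of readable probe sets. Klk1b1, Klk1b21, Klk1b24 and Klk1b27 encode further proteases of the family, and Klk1b7-ps is a transcribed pseudogene. Klk1b21 read 17.70, 18.24 and 18.30 in Myd88−/− glands, against 17.89, 18.12 and 18.12 in Myd88+/+ glands. Klk1b24 read 17.07, 17.40 and 17.48 in Myd88−/− glands, against 17.44, 17.40 and 17.34 in Myd88+/+ glands. Klk1b27 read 13.95, 14.67 and 14.90 in Myd88−/− glands, against 14.60, 14.45 and 14.42 in Myd88+/+ glands. In these 3 genes the lowest gland was Myd88−/− replicate 1 and the highest Myd88−/− replicate 3, and their differences were 0.04, −0.07 and 0.01. Klk1b1 read 15.68, 15.95 and 15.81 in Myd88−/− glands, against 15.48, 15.64 and 15.67 in Myd88+/+ glands. It was the 1 gene of the 5 whose groups did not overlap, by a narrow gap, with a difference of 0.22 (95% interval −0.16 to 0.59, limma adjusted p = 0.69, exact permutation p = 0.1). Klk1b7-ps read 8.48, 8.64 and 8.48 in Myd88−/− glands, against 8.48, 8.45 and 8.48 in Myd88+/+ glands, a single value shared by 4 of 6 arrays. None of the 5 passed limma's test (0 higher, 0 lower). Genes this alike can share probes, which could not be checked without probe sequences, so the separate value of each is uncertain.

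What varied in the family was the level between Myd88−/− glands. The SD was larger among Myd88−/− than among Myd88+/+ glands in all 3 readable members and in all 8 glandular kallikreins below the ceiling. The ratio of the SD in Myd88−/− over that in Myd88+/+ glands was 6.50 for Klk1b8, 62.0 for Klk1b9 and 2.46 for Klk1b16. It was 1.30 for Klk1b1, 2.54 for Klk1b21, 4.19 for Klk1b24, 5.10 for Klk1b27 and 7.04 for Klk1b7-ps. The ratios of Klk1b9 and Klk1b7-ps rest in part on tied values, and that of Klk1b1 was close to the median of all probe sets. Over 22182 probe sets with a spread in both groups, 54.3% had the larger SD in Myd88−/− glands, the median ratio was 1.09 and the 90th percentile 3.39. Over the 11079 brighter of these the same figures were 53.0%, 1.06 and 3.24. This pattern was noticed in the data and was not tested, since SDs of 3 mice are imprecise and the 8 genes share their arrays and perhaps probes.

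The wide spread followed the same mice in part of these genes. Myd88−/− replicate 1 was the lowest of the 6 glands in 5 of the 8 genes, and Myd88−/− replicates 2 and 3 were the 2 highest in 5 of the 8. Both held together only in Klk1b9, Klk1b21 and Klk1b27. In Klk1b16 and Klk1b1 the lowest gland was Myd88+/+ replicate 1. Averaged over the 3 readable members, each centred on its own mean over the 6 arrays, the score was −0.39, 0.31 and 0.35 in Myd88−/− replicates 1, 2 and 3, against −0.18, −0.09 and 0.00058 in Myd88+/+ replicates 1, 2 and 3. Over the 6 arrays, Pearson's r was 0.86 between Klk1b8 and Klk1b9, 0.89 between Klk1b9 and Klk1b16 and 0.70 between Klk1b8 and Klk1b16, and it ran from 0.11 to 0.95 over the 28 pairs of the 8 genes. These correlations describe values from the same arrays and carry no test. Because the tissue is a whole gland, fewer tubule cells and less transcript per cell cannot be told apart. Without Myd88−/− replicate 1 the differences were 0.16 for Klk1b8, 0.32 for Klk1b9 and 0.78 for Klk1b16, none of which passed (limma adjusted p = 0.877, 0.697 and 0.603), and the sign of Klk1b8 turned.

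**Figure D3:**
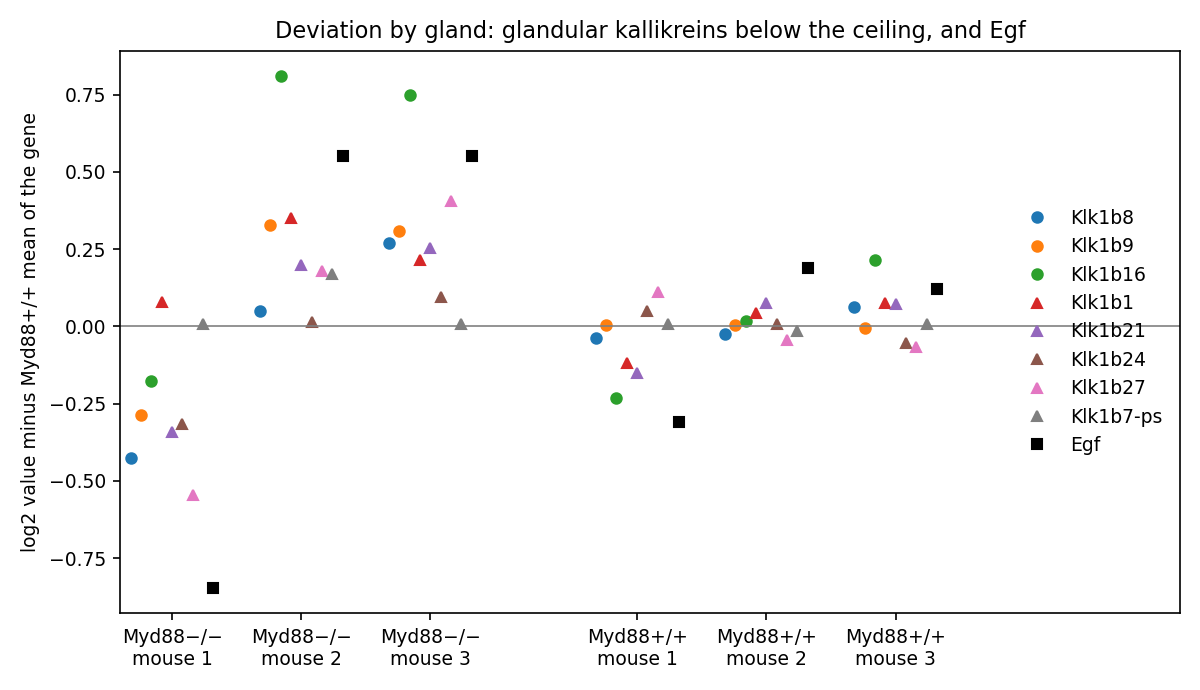
Log2 value of each gland minus the Myd88+/+ mean of the gene (vertical axis) for 3 members (circles), 5 other glandular kallikreins (triangles) and Egf (squares), with the 3 Myd88−/− mice to the left of the 3 Myd88+/+ mice. Most symbols of Myd88−/− replicate 1 lie below 0 and those of Myd88−/− replicates 2 and 3 above it.

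Egf, the gene of epidermal growth factor and a product of the same granular tubules, had its low and high glands in the same mice. It read 14.46, 15.86 and 15.86 in Myd88−/− glands, against 14.999, 15.50 and 15.43 in Myd88+/+ glands. Myd88−/− replicate 1 was the lowest of all 6 and Myd88−/− replicates 2 and 3 the highest, while the group means differed by 0.09 (limma adjusted p = 0.956). Its r with the score of the readable members was 0.94 over the 6 arrays (Spearman's rho 0.89) and 0.92 without Myd88−/− replicate 1, which placed it at rank 26 of 19483 genes outside the family. The 8 genes ranked highest, with r from 0.968 to 0.994, were Olfr1140, Olfr492, Msmp, H2al1j, Gm2012, Eppin, Shisal2b and Spryd4. Of these, 6 were below the background control median of 5.55 on every array, so with 94 genes above an r of 0.9 over only 6 arrays the ranking is a description and no evidence of a link. Among the other tubule products, Smr3a had Myd88−/− replicate 1 lowest and Myd88−/− replicates 2 and 3 highest as well. It read 6.05, 6.85 and 6.46 in Myd88−/− glands, against 6.26, 6.14 and 6.06 in Myd88+/+ glands. The rest did not share this order. Smr2, Gdnf and Tgfa read 6.95, 5.03 and 4.56 in Myd88−/− replicate 1, which was the highest of the 6 glands in each, with Gdnf and Tgfa under the background control median. The score of all 7 measured genes of granular tubule products, Egf included, was −0.0059, 0.0066 and 0.11 in Myd88−/− glands, against −0.077, −0.023 and −0.012 in Myd88+/+ glands. Crisp3, a secretory protein, stood near the ceiling at 19.80 in all 3 Myd88−/− glands, against 19.76, 19.80 and 19.80 in Myd88+/+ glands. All glands but Myd88+/+ replicate 1 shared a single value, so its difference of 0.014 rests on that gland and a tie. Of the 7 genes, 5 were higher, Crisp3 included, 2 lower and 0 called.

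Array spread and the markers of other cells also varied between mice. Between the 10th and 90th percentiles each array spanned 6.95, 7.13 and 6.83 log2 units in Myd88−/− replicates 1, 2 and 3, against 7.30, 7.10 and 7.20 in Myd88+/+ replicates 1, 2 and 3. Myd88−/− replicates 1 and 3 had the 2 narrowest spans. Scored in the same way as the members, the 14 measured leukocyte markers of 16 listed stood at −0.32, −0.45 and −0.36 in Myd88−/− glands, against −0.10, 0.21 and 1.005 in Myd88+/+ glands, and 13 of the 14 were lower and 0 called. The 19 duct markers scored −0.20, 0.01 and −0.11 in Myd88−/− glands, against 0.28, 0.12 and −0.11 in Myd88+/+ glands, with 13 lower, 6 higher and 0 called. The 10 readable acinar markers of 12 measured scored −0.33, −0.26 and −0.30 in Myd88−/− glands, against 0.10, 0.07 and 0.72 in Myd88+/+ glands, with 8 lower, 2 higher and 0 called. The acinar score rests largely on Dcpp3 and Bpifa2, both genes of secreted salivary proteins. Whether these genes report submandibular acini or other tissue taken with the gland was not tested. Dcpp3 read 6.59, 4.80 and 5.31 in Myd88−/− glands, against 4.65, 4.70 and 14.91 in Myd88+/+ glands. Bpifa2 read 5.55, 5.78 and 6.38 in Myd88−/− glands, against 9.35, 10.07 and 6.27 in Myd88+/+ glands. The high values were those of 1 Myd88+/+ gland for Dcpp3 and of 2 Myd88+/+ glands for Bpifa2. The 10 myoepithelial and basal markers scored −0.46, 0.20 and −0.34 in Myd88−/− glands, against 0.08, 0.03 and 0.49 in Myd88+/+ glands, with 8 lower, 2 higher and 0 called. Of 7 measured genes of the sublingual and parotid glands 3 were higher and 3 lower, and of 12 genes of fat, muscle and lymphatic tissue 6 were higher and 6 lower, with 0 called in either list. Myd88−/− replicate 1, the lowest gland in the kallikrein score, was also the lowest in the acinar, duct and myoepithelial scores. Myd88−/− replicate 3, the highest gland in the kallikrein score, was the next lowest in the acinar and myoepithelial scores, at −0.30 and −0.34. The part of cell makeup and array spread in the kallikrein values was not tested.

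The kallikrein-related peptidases outside the glandular group, Klk4 to Klk15, lie on the same stretch of chromosome 7 and were dim. Of the 12 genes, 10 averaged in either genotype less than the background control median of 5.55, as did 0 of the 5 other glandular genes. Of the 12, 9 were higher, 3 lower and 0 called, with a median difference of 0.14. Klk15 read 5.41, 5.10 and 5.50 in Myd88−/− glands, against 4.40, 4.82 and 4.72 in Myd88+/+ glands. All 3 Myd88−/− glands were above all 3 Myd88+/+ glands, by 0.69 on average, but the difference did not pass (limma adjusted p = 0.38) and lies under background. Klk11 was 0.47 higher on the same terms (limma adjusted p = 0.468). Klk6 averaged 6.35 ± 0.58 with Myd88−/−, against 5.82 ± 0.70 with Myd88+/+, and Klk7 averaged 6.02 ± 0.28 with Myd88−/−, against 5.66 ± 0.13 with Myd88+/+ (SD, n = 3 each), with overlapping glands in both genes.

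Genes of the kinin system, serine protease inhibitors in general and other trypsin-like proteases gave no call either. Which of the inhibitors act on glandular kallikreins was not tested. Among 12 genes of the kinin system 6 were higher, 6 lower and 0 called. The kininogen genes Kng1 and Kng2, whose products Klk1 cleaves, averaged 4.36 and 6.22 in Myd88−/− glands, against 4.52 and 6.001 in Myd88+/+ glands. Kng1 was under the background control median in both groups. The kinin receptor genes Bdkrb1 and Bdkrb2 averaged 3.70 and 5.21 in Myd88−/− glands, against 3.5003 and 4.98 in Myd88+/+ glands, all under the background control median, and the groups of Bdkrb2 did not overlap. Ace, which degrades kinins, read 7.04, 6.04 and 6.75 in Myd88−/− glands, against 7.23, 7.19 and 7.905 in Myd88+/+ glands. Its groups did not overlap, with a difference of −0.83 that did not pass (limma adjusted p = 0.431). Of the 12 kinin genes, the groups did not overlap in 2 that were higher and 3 that were lower. Over all probe sets these shares were 7.84% and 7.25%, and the counts of the list were not tested. Among 17 measured serine protease inhibitors 9 were higher, 8 lower and 0 called. The largest differences there were 1.27 in Wfdc12 and −1.04 in Serpina3n (limma adjusted p = 0.339 and 0.382), and the Myd88−/− mean of Serpina3n, 4.82, lay under background. Of 14 other trypsin-like proteases 4 were higher, 10 lower and 0 called, with Plau, the gene of urokinase, at −0.72 and Prss8, the gene of prostasin, at −0.36.

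Genes through which steroid and thyroid hormones act on the granular tubules were measured for 16 of 19 listed. Of these, 6 were higher, 10 lower and 0 called, with a median difference of −0.17. Thra, a thyroid hormone receptor gene, read 8.93, 9.05 and 8.73 in Myd88−/− glands, against 9.64, 9.22 and 9.61 in Myd88+/+ glands, without overlap and with a difference of −0.58 (limma adjusted p = 0.411). Its relative Thrb averaged 10.62 in Myd88−/− and 10.87 in Myd88+/+ glands, and the glucocorticoid receptor gene Nr3c1 averaged 7.83 in Myd88−/− and 7.99 in Myd88+/+ glands, both with overlap. Foxa1, a cofactor of steroid receptors, averaged 9.24 in Myd88−/− and 9.46 in Myd88+/+ glands.

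**Figure D4:**
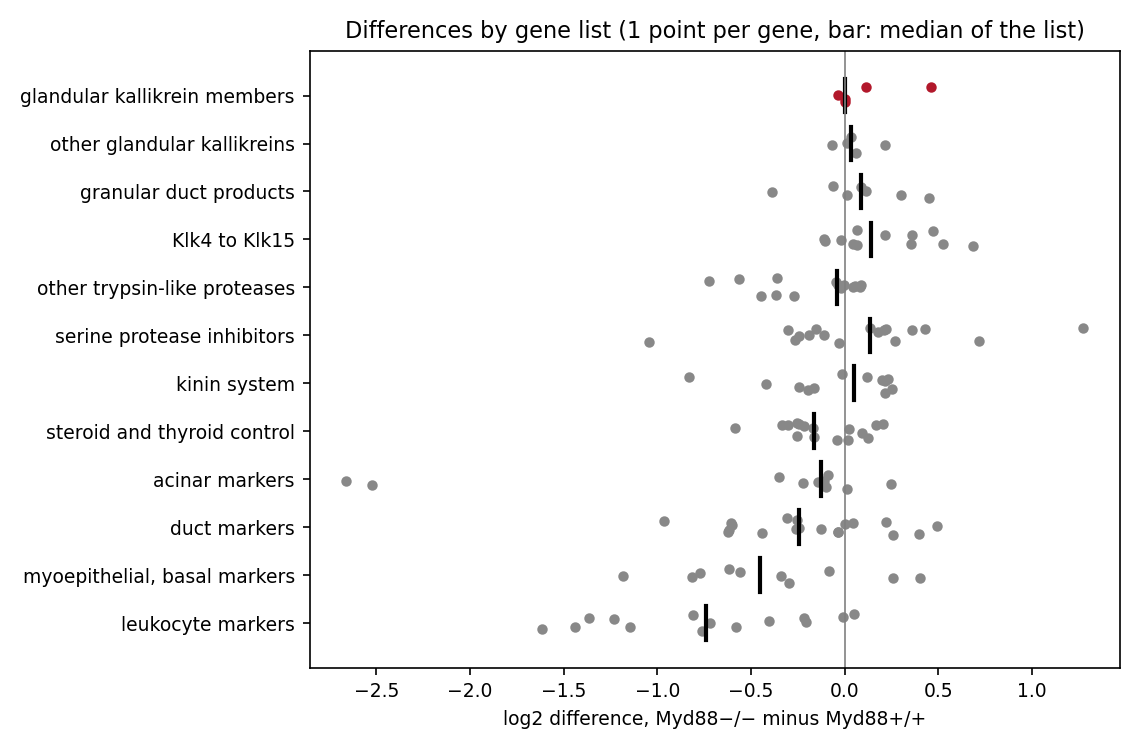
Log2 difference, Myd88−/− minus Myd88+/+ (horizontal axis), of each gene by list, with the glandular kallikrein members in red, a bar at the median of each list and genes saturated on every array left out. The 5 members lie between −0.04 and 0.46, and 0 genes of any list passed limma's adjusted test.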

How the data were processed

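The authors deposited log2 values that the labels call RMA (robust multi-array average) expression, made in the Transcriptome Analysis Console. No version, RMA variant or genome build is given in the sources used here. RMA normalizes between arrays, and the values have a fixed upper limit at which differences cannot be read. Of 28846 probe sets, 6640 controls were left out, and 2634 of the 22206 tested were unnamed here. The probe set with the highest mean stood for a gene. Groups came from the sample titles. Replicates are separate mice, per the design text. Myd88−/− minus Myd88+/+ was fitted with limma 3.58.1 in R 4.3.3, with p-values adjusted by Benjamini and Hochberg's method across the 22206 probe sets, a call at 0.05 and limma's 95% intervals, and the fit was tested on simulated data. Single genes also had an exact permutation test. The number of arrays limits the precision. A value within 0.0005 of 19.93 counted as on the ceiling. The members, the gene lists and the rule for named genes were chosen with earlier results of these data known. The rule for names takes all members, all other genes of the cluster, at most 5 genes of each list by smallest p and the 8 genes most correlated with the readable members, and the remaining genes named were chosen for their role or after their values were seen. Promoter windows came from RefSeq, matched by symbol for all 10 members, and were aligned with Biopython 1.88. Replicate numbers are shared by the groups, but same-numbered mice did not deviate together (r = −0.11, −0.15 and −0.02), so no block was used. Alternatives were quantile normalization, median centring, cyclic loess, a filter on the dimmest 30% or 50% of probe sets, robust variances with an intensity trend, array weights, unmoderated variances, the replicate block and leaving out each mouse.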

Additional observations from a re-analysis of the deposited data

How the results depend on the processing

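In every alternative 0 members were called. The limma adjusted p ranged from 0.521 to 0.853 for Klk1b16, from 0.697 to 0.992 for Klk1b9 and from 0.856 to 0.997 for Klk1b8. Klk1b16 and Klk1b9 kept their sign, at 0.29 to 0.78 and 0.01 to 0.32 with each mouse left out in turn. Klk1b8 turned to 0.072 after quantile normalization, and with each mouse left out ran from −0.19 to 0.16, its highest value being that without Myd88−/− replicate 1; the cause was not tested. The ceiling members Klk1b11 and Klk1b22 turned to −0.017 and −0.017 with median centring and to −0.0064 and −0.0068 with cyclic loess; the cause was not tested. The median over the 5 members stayed between −0.017 and 0.16 in all alternatives. With the replicate block the difference of Klk1b16 was 0.46 and its limma adjusted p 0.619, and the block changed no call. Over all probe sets 2 were called with median centring and 4 with robust variances and an intensity trend. The count ran from 0 to 5 with each mouse left out, being 1 without Myd88−/− replicate 2, while leaving out Myd88+/+ replicate 1 gave 5 and leaving out Myd88+/+ replicate 3 gave 1. Among all list genes 0 to 1 were called with each mouse left out, the 1 being Bpifa2 at −3.81 without Myd88+/+ replicate 3 (limma adjusted p = 0.0242). Without the dimmest 50% of probe sets the value for Klk4 to Klk15 was 0.52, which is the difference of Klk6 alone. Klk6 is the brightest of that list, and its groups overlapped, so this value describes no shift of the list. The median of the other trypsin-like proteases was −0.36, over fewer genes. Averaging several probe sets of a member was not run, because each had 1. The ceiling limits 5 of the 8 measured members whatever the processing.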
